A study of Homo sapiens with 4 samples.

Results

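DNA methylation was examined at 9 germline genes in H9 human embryonic stem cells: DAZL, DDX4, MAEL, TDRD1, PIWIL1, SYCP3, HORMAD1, BRDT and STK31. The members were the cytosines that lay in the hg19 span of one of these genes or within 5 kb of it and had at least 5 reads in every library. They numbered 318 of the 907719 cytosines that met the same read minimum anywhere, and all 9 genes had some. The study sequenced 4 bisulfite capture libraries, with 1 library per group, all from the H9 line. KO naive was the B3GALT5-/- genotype converted in 2iLAF medium, and WT naive was the wild type converted in 5iLAF medium. KO primed was the B3GALT5-/- genotype in basal medium, and WT primed was the wild type in the same medium. B3GALT5 encodes a galactosyltransferase of glycolipid synthesis. The comparisons were naive against primed cells within each genotype and KO against WT cells within each state. Genotype and medium changed together between the naive libraries and cannot be told apart there. Nothing in the labels says whether the knockout was a single clone, and methylation levels do not check the deletion itself.

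Germline genes are active in germ cells and are kept off in most other cells. At many of them a CpG-rich promoter carries dense DNA methylation in somatic and primed pluripotent cells, which is unusual among CpG-rich promoters, and this methylation is part of how they are silenced. In mouse embryonic stem cells a Polycomb complex with the DNA-binding proteins MGA, MAX and E2F6 also represses many of them. Naive human pluripotent cells are known for genome-wide loss of methylation, so the question here was how far the germline promoters shared that loss. RNA was not measured in these libraries, so that silencing itself was not examined.

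The libraries held 2340330 listed cytosines in KO naive, 2018895 in WT naive, 2204054 in KO primed and 2109788 in WT primed. Their reads totalled 40697882 in KO naive, 23916547 in WT naive, 28450230 in KO primed and 24570785 in WT primed. At the 318 member cytosines the median was 21 reads in KO naive, 13 in WT naive, 12 in KO primed and 11 in WT primed. The level of a cytosine is the percentage of its reads that were methylated, and a difference is given in percentage points. No library listed a cytosine without a methylated read, so an unlisted cytosine had either no coverage or no methylated read, and low levels are raised by this selection. Of 809 cytosines listed at these loci in any library, 739 were listed in KO naive, 595 in WT naive, 671 in KO primed and 678 in WT primed. At the edge of the read minimum, the 43 members whose smallest depth was 5 reads averaged 63.5% in KO naive, 48.3% in WT naive, 83.3% in KO primed and 84.8% in WT primed. The 40 cytosines left out with a smallest depth of 4 reads averaged 60.9% in KO naive, 52.1% in WT naive, 93.5% in KO primed and 94.7% in WT primed. With no replicate libraries, the SD after each mean is over cytosines within a library and does not measure spread between cultures.

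The promoter sequences of 8 of the genes were available from RefSeq (GRCh38.p14), and HORMAD1 had no entry. They were laid on the deposited cytosines by the spacing of their CpGs, which gave hg19 positions for BRDT, DAZL, MAEL, STK31, SYCP3 and TDRD1. Every listed cytosine inside these windows fell on a CpG of the sequence. The 250 bases upstream of the start are shown for 5 genes, because the results turn on which CpG-rich promoters stayed high or stood low in naive cells. Capitals mark the CpGs with at least 5 reads in every library, 5′ to 3′ on the strand of the gene. The DAZL stretch is chr3:16646931-16647180 on the minus strand, MAEL chr1:166958267-166958516 on the plus strand, TDRD1 chr10:115938796-115939045 on the plus strand, SYCP3 chr12:102133241-102133490 on the minus strand and BRDT chr1:92414678-92414927 on the plus strand.
DAZL: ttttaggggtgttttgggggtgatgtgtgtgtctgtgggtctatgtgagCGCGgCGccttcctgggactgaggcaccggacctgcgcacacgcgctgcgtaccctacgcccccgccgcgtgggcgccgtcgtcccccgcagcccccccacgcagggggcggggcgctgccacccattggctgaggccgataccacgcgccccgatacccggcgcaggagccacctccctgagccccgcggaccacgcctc
MAEL: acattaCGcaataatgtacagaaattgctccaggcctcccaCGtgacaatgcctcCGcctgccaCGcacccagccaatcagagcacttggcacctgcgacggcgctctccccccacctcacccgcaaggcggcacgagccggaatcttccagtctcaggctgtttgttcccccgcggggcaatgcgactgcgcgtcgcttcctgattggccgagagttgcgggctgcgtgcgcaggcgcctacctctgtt
TDRD1: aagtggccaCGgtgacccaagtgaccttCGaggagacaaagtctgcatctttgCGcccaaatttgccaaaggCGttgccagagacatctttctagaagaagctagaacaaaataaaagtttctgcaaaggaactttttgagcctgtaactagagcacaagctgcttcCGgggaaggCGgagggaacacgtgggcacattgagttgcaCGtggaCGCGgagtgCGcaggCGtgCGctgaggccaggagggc
SYCP3: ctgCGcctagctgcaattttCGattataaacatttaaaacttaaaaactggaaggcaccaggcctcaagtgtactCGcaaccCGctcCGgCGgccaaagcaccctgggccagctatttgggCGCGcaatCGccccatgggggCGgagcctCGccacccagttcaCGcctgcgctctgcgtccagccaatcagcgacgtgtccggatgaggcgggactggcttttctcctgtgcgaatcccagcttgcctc
BRDT: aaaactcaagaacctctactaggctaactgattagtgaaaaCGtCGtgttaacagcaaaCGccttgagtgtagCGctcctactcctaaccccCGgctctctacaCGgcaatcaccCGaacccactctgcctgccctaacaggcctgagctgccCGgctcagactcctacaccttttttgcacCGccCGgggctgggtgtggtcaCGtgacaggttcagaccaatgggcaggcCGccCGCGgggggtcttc
All 14 CpGs of the BRDT stretch were measured, as were 12 of 13 in TDRD1, 12 of 19 in SYCP3, 4 of 22 in MAEL and 3 of 28 in DAZL. The dense run of CpGs next to the DAZL start is therefore mostly unmeasured. Over the full promoter windows (250 bases before to 50 after the start), the ratio of observed to expected CpGs had a median of 0.873 in the 5 member promoters with at least 5 measured cytosines, against 0.54 in 1162 other promoters placed in the same way.

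In primed cells the germline starts were highly methylated, and in naive cells most stood far lower. The start window covers 2 kb on either side of the 5′ end of the span and held 195 measured cytosines in 8 genes. The mean level there was 61.4% ± 25.4 in KO naive and 92.1% ± 14.2 in KO primed (SD, 195 cytosines). It was 52.6% ± 28.7 in WT naive and 88.6% ± 16.3 in WT primed. All 8 genes stood lower in naive than in primed cells in both genotypes. Of all 907719 cytosines, 762619 stood lower in KO and 697140 in WT cells. The difference reached 25 points or more in 5 genes in KO cells (TDRD1, BRDT, SYCP3, DDX4 and HORMAD1) and in 6 genes in WT cells (BRDT, PIWIL1, TDRD1, STK31, DDX4 and SYCP3). A difference of that size was frequent everywhere: among 52134 tiles of 4 kb with at least 5 cytosines, it was met by 38.1% in KO cells and by 40.6% in WT cells. Among tiles at 75% or above in the primed library of the other genotype it was met by 40.6% in KO and 44.6% in WT cells. No start window was higher by 25 points or more in naive cells, against 0.123% of tiles in KO and 0.41% in WT cells.

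**Figure D1:**
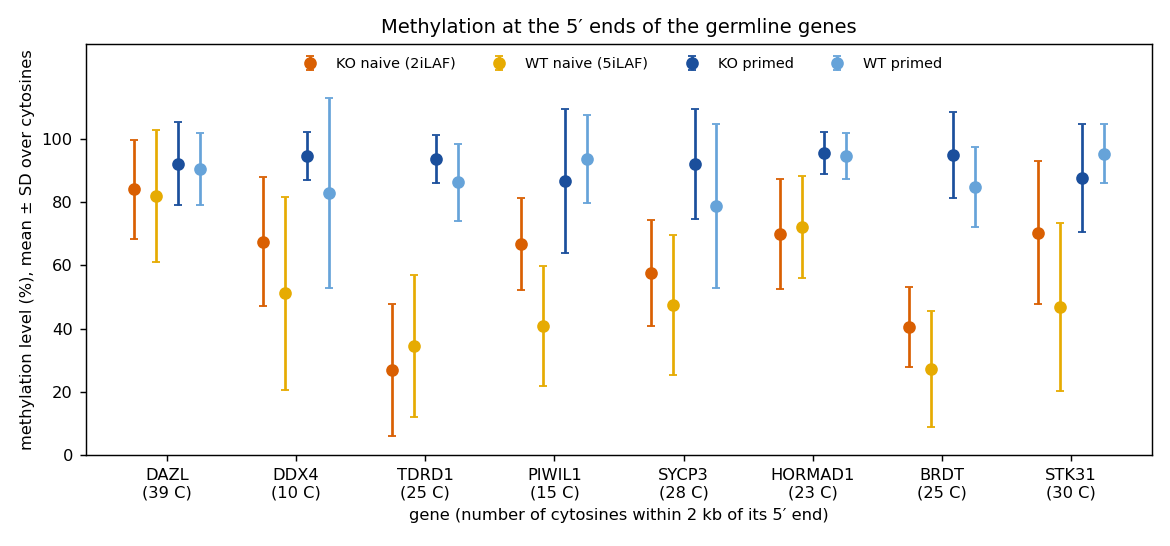
Mean methylation level in percent over the start window of 8 germline genes, with 1 point per gene and library and error bars of 1 SD over cytosines, drawn also where they pass 100%. Both primed libraries lie between 78.7 and 95.5% in every gene, while the naive libraries spread between 27.0% in TDRD1 (KO naive) and 84.1% in DAZL (KO naive).

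Over the whole loci the mean difference between naive and primed cells was more negative than that of all cytosines in both genotypes at the minimum of 5 reads. The 318 cytosines averaged 60.3% ± 25.2 in KO naive and 87.2% ± 20.1 in KO primed, a difference of -26.8 points, where all 907719 cytosines differed by -22.3. They averaged 54.6% ± 28.6 in WT naive and 85.2% ± 20.7 in WT primed, a difference of -30.6 points, where all cytosines differed by -22.5. At a minimum of 20 reads this order turned in WT cells, at -17.4 points over 8 members against -19.4 over all cytosines. In primed cells all cytosines stood lower than the members at the minimum of 5 reads, at 81.2% in KO primed and 80.2% in WT primed. The part of this starting level in the larger member difference was not tested. Taken as 2 genotype pairs, the naive minus primed difference was -28.7 ± 2.66 points (SD, 2 pairs) and an exact two-sided permutation test gave p = 0.5, the smallest value 2 pairs allow. Fisher's exact test on the reads of single cytosines, adjusted over all cytosines by the Benjamini-Hochberg method, compares 2 libraries and not the conditions. A cytosine was called where its adjusted p was below 0.05 and its level differed by 25 points or more. By this rule 70 of the 318 cytosines (22.0%) were called lower in KO naive than in KO primed, against 18.2% of all cytosines. In WT cells 77 (24.2%) were called lower, against 16.2% of all. No member was called higher in naive cells in either genotype, where 0.242% of all cytosines were called higher in KO and 0.442% in WT cells. The excess over all cytosines was small at cytosines with at least 10 reads in every library, at 29.2% of 120 members against 27.4% of all in KO and 28.3% against 26.7% in WT cells. With reads divided by the variance ratio between strands, 0 members in KO and 2 (0.629%) in WT cells were called, against 0.231% of all cytosines in KO and 0.146% in WT cells.

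**Figure D2:**
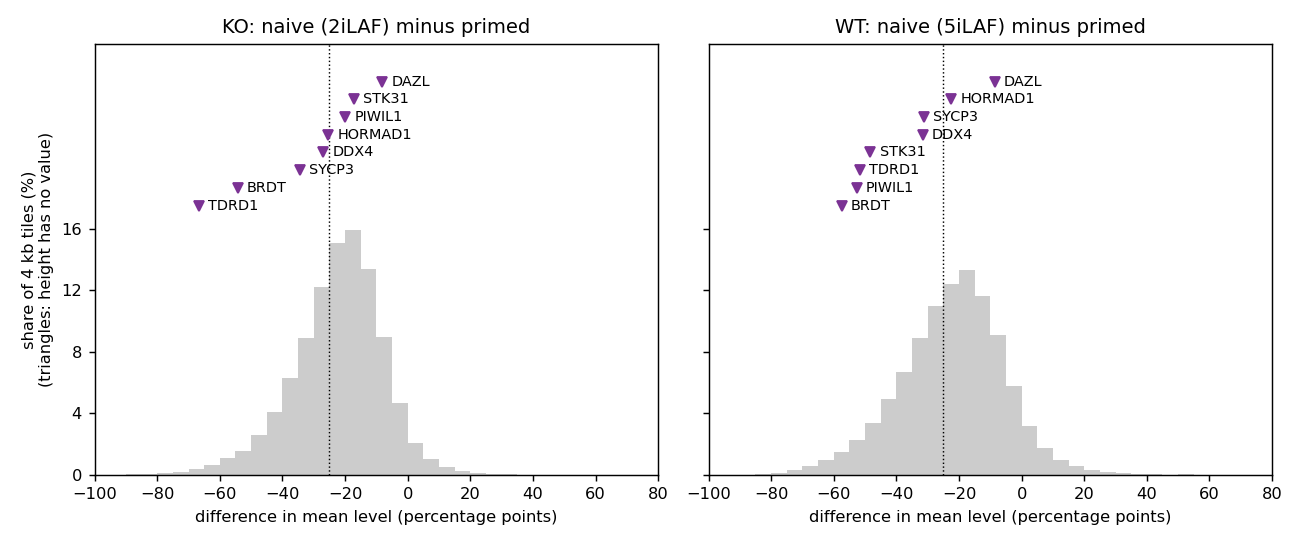
Difference in mean level, naive minus primed, in percentage points, for KO cells (left panel) and WT cells (right panel), with grey bars for the share of all 4 kb tiles in each bin and triangles for the start windows of the 8 genes. The dotted line marks -25 points. DAZL lies farthest to the right in both panels, at -8.05 in KO and -8.60 in WT cells, and TDRD1 and BRDT lie far to the left in both.

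DAZL and DDX4 act on RNA in germ cells: DAZL is an RNA-binding protein that promotes translation of germ cell messages, and DDX4 (VASA) is an RNA helicase of germ granules. DAZL (chr3:16628000-16648000) kept the most methylation of the 8 genes in naive cells. Its start window averaged 84.1% ± 15.7 in KO naive, 81.9% ± 20.9 in WT naive, 92.1% ± 13.1 in KO primed and 90.5% ± 11.5 in WT primed (SD, 39 cytosines). The naive minus primed difference was -8.05 points in KO and -8.60 in WT cells. Of the 39 cytosines, 1 (2.56%) was called lower in KO naive cells and 3 (7.69%) in WT naive cells. Of all cytosines, 18.2% were called lower in KO and 16.2% in WT cells. Within 1 kb of the 5′ end the WT difference was 3.69 points, so the direction in WT cells turned with the width of the window. At cytosines with at least 10 reads in every library the differences were -18.0 in KO and -16.2 in WT cells.

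The DAZL levels varied with distance from the first placed RefSeq start, at position 16646930. In the first 500 bases after the start, the 18 cytosines averaged 91.1% ± 11.7 in KO naive, 92.5% ± 9.37 in WT naive, 90.9% ± 16.3 in KO primed and 90.8% ± 8.89 in WT primed. The 4 libraries thus lay within 1.7 points of each other there. In the next 500 bases, 19 cytosines averaged 77.1% ± 16.0 in KO naive and 69.5% ± 21.6 in WT naive, against 94.9% ± 8.25 in KO primed and 96.6% ± 8.35 in WT primed. From 1000 to 1500 bases, 11 cytosines averaged 65.4% ± 16.2 in KO naive and 80.02% ± 11.1 in WT naive, against 95.2% ± 6.32 in KO primed and 94.8% ± 9.82 in WT primed. The lower naive levels at DAZL therefore lay away from this first start. A second RefSeq start of DAZL was placed at position 16646297, inside the stretch from 500 to 1000 bases where naive levels were lower. Its promoter window held 0 measured cytosines, so the level at that start is not known. In the promoter window of the first start, 5 cytosines averaged 97.5% ± 5.59 in KO naive and 98.2% ± 4.07 in WT naive. They averaged 100% in KO primed and 79.3% ± 18.2 in WT primed, with median reads of 6 to 11. A promoter at 80% or above in both naive libraries was uncommon, at 3.27% of the 1162 other placed promoters. It was 4.95% of the 748 among them at 75% or above in both primed libraries. Among 4 kb tiles at 75% or above in both primed libraries, 5.87% were as high in both naive libraries.

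At DDX4 (chr5:55033000-55113000) naive levels were below primed levels at 9 of 10 start-window cytosines in KO and at 8 of 10 in WT cells. Over the whole table this held for 762619 of 907719 cytosines in KO and 697140 in WT cells, so the DDX4 counts are near that background. The means were 67.5% ± 20.4 in KO naive, 51.2% ± 30.5 in WT naive, 94.5% ± 7.50 in KO primed and 82.8% ± 30.004 in WT primed. Naive cells differed from primed cells by -27.0 points in KO and -31.6 in WT cells. Of 10 cytosines, 2 (20%) were called lower in each genotype, near the 18.2% of all cytosines in KO and 16.2% in WT cells. Position 55033716, with the largest start-window difference in KO cells and a tie for the largest in WT cells, had 12 of 26 reads methylated in KO naive, 2 of 10 in WT naive, 10 of 10 in KO primed and 7 of 7 in WT primed. Only 1 DDX4 cytosine had at least 10 reads in every library, and it differed by -8.33 points in KO and -5.88 in WT cells. Past the 3′ end of the gene, 12 cytosines between positions 55117575 and 55117671 were low in every library. They averaged 11.9% ± 3.13 in KO naive, 21.3% ± 10.9 in WT naive, 28.9% ± 17.1 in KO primed and 29.1% ± 9.43 in WT primed.

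**Figure D3:**
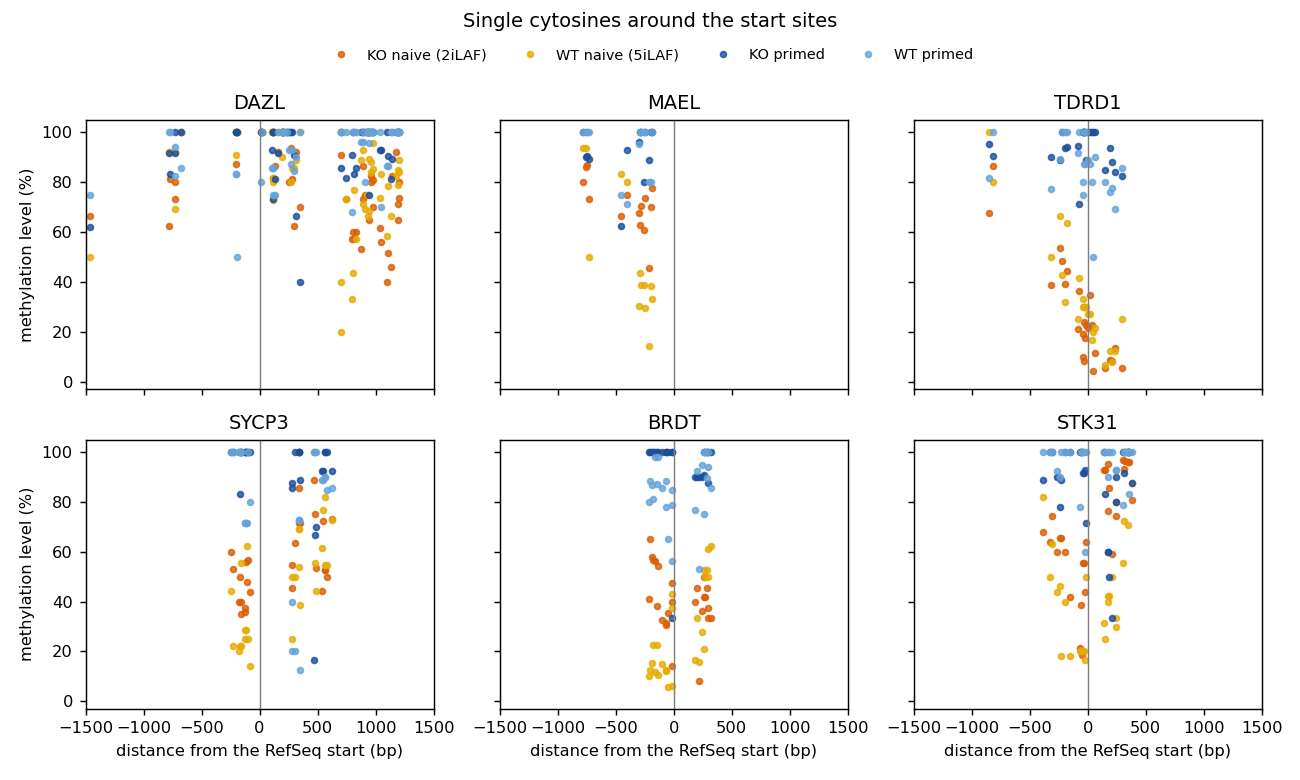
Methylation level in percent of each measured cytosine by its distance in bp from the placed RefSeq start (grey line), with 1 point per cytosine and library and 1 panel per gene for 6 genes. In the first 500 bp after the start the libraries overlap in DAZL, at means of 90.8 to 92.5%, while in TDRD1 KO naive at 13.7% and WT naive at 17.8% lie apart from the primed libraries.

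TDRD1, PIWIL1 and MAEL belong to the piRNA pathway, which silences transposons in the male germline through small RNAs bound to PIWI proteins. TDRD1, a Tudor protein that binds PIWI proteins, had the largest difference of the 8 genes in KO cells and had the lowest level in KO naive. The TDRD1 start window (span chr10:115939000-115992000) averaged 27.0% ± 21.0 in KO naive, 34.5% ± 22.5 in WT naive, 93.6% ± 7.44 in KO primed and 86.2% ± 12.1 in WT primed (SD, 25 cytosines). Both naive means lay far below both primed means. The naive minus primed difference was -66.7 points in KO and -51.7 in WT cells. Of the 25 cytosines, 21 (84%) were called lower in KO and 12 (48%) in WT cells, against 18.2% and 16.2% of all cytosines. In the first 500 bases after the start at position 115939046, the level was 13.7% ± 9.88 in KO naive, 17.8% ± 7.61 in WT naive, 93.4% ± 7.61 in KO primed and 78.5% ± 11.9 in WT primed. The steepest single site in KO cells, position 115939091, had 1 of 23 reads methylated in KO naive, 3 of 15 in WT naive, 9 of 9 in KO primed and 3 of 6 in WT primed (adjusted p = 2.25e-05 in KO and 0.534 in WT, Fisher's exact test).

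PIWIL1, a PIWI protein that binds piRNAs in spermatids, differed between the naive libraries. Its start window (span chr12:130822000-130858000) averaged 66.8% ± 14.4 in KO naive, 40.9% ± 19.0 in WT naive, 86.7% ± 22.7 in KO primed and 93.6% ± 14.0 in WT primed (SD, 15 cytosines). Naive minus primed, this was -19.9 points in KO and -52.7 in WT cells. Of the 15 cytosines, 1 (6.67%) was called lower in KO and 10 (66.7%) in WT cells, against 18.2% and 16.2% of all cytosines. The largest start-window difference in WT cells lay at position 130821576, with 20 of 39 reads methylated in KO naive, 3 of 20 in WT naive, 7 of 12 in KO primed and 9 of 9 in WT primed (adjusted p = 0.000678 in WT and 0.913 in KO, Fisher's exact test). In the body, the span outside the start window, the 9 measured cytosines lay only 2012 to 2959 bases past the 5′ end. There KO naive also stood above WT naive, at 53.8% ± 18.1 in KO naive, 21.2% ± 9.73 in WT naive, 76.2% ± 18.6 in KO primed and 66.9% ± 30.8 in WT primed. RefSeq places RIMBP2 in overlap with this locus.

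MAEL, a piRNA factor needed for transposon silencing in the mouse testis, was measured in its body and not at the 5′ end of its span (chr1:166944000-166992000). Around that 5′ end 11 cytosines were listed in any library, of which 8 were in KO naive, 3 in WT naive and 0 in either primed library. The 19 body cytosines averaged 70.5% ± 12.0 in KO naive, 63.4% ± 29.7 in WT naive, 93.0% ± 9.73 in KO primed and 93.6% ± 10.7 in WT primed. One RefSeq start of MAEL was placed inside the span at position 166958517, and 10 cytosines in the 500 bases before it averaged 67.1% ± 9.21 in KO naive, 43.1% ± 21.9 in WT naive, 92.1% ± 12.3 in KO primed and 90.2% ± 12.0 in WT primed. Both naive libraries were lower there, WT naive more so. Of the 20 MAEL cytosines, 3 (15%) were called lower in KO and 7 (35%) in WT naive cells, against 18.2% and 16.2% of all cytosines.

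SYCP3 and HORMAD1 are parts of the meiotic chromosome axis: SYCP3 builds the lateral element of the synaptonemal complex and HORMAD1 marks unsynapsed chromosomes. The SYCP3 start window (span chr12:102122000-102134000) averaged 57.5% ± 16.8 in KO naive, 47.4% ± 22.1 in WT naive, 92.0% ± 17.3 in KO primed and 78.7% ± 25.9 in WT primed (SD, 28 cytosines). The naive minus primed difference was -34.5 points in KO and -31.3 in WT cells. Of the 28 cytosines, 10 (35.7%) were called lower in KO and 4 (14.3%) in WT cells, against 18.2% and 16.2% of all cytosines. Before the start at position 102133240, 12 cytosines averaged 46.3% ± 8.76 in KO naive, 30.9% ± 15.0 in WT naive, 98.6% ± 4.81 in KO primed and 88.8% ± 14.0 in WT primed. These are the capitals of the SYCP3 stretch shown above. In the 500 bases after the start, 10 cytosines averaged 70.9% ± 17.3 in KO naive, 55.6% ± 20.4 in WT naive, 81.5% ± 25.9 in KO primed and 61.1% ± 35.2 in WT primed, so that the groups overlapped. From 500 to 1000 bases after the start, 6 cytosines averaged 57.5% ± 12.2 in KO naive, 67.02% ± 11.8 in WT naive, 96.2% ± 4.21 in KO primed and 88.02% ± 2.29 in WT primed, so naive levels were lower again there. Within 1 kb of the 5′ end the differences were -52.3 in KO and -57.9 in WT cells. The SYCP3 span overlaps CHPT1 in RefSeq.

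HORMAD1 (chr1:150670000-150694000) ranked next to DAZL in WT naive and next to DAZL and STK31 in KO naive, counted from the highest start-window level. Its start window averaged 70.1% ± 17.4 in KO naive, 72.1% ± 16.2 in WT naive, 95.5% ± 6.68 in KO primed and 94.7% ± 7.24 in WT primed (SD, 23 cytosines). Such naive levels were common: of 4 kb tiles at 75% or above in both primed libraries, 26.9% were at 70% or above in both naive libraries. Between naive and primed cells the difference was -25.5 points in KO and -22.5 in WT cells, close to the genome-wide values of -22.3 and -22.5. Of the 23 cytosines, 3 (13.0%) were called lower in KO and 0 in WT naive cells, against 18.2% and 16.2% of all cytosines. In WT cells 3 of the 23 had an unadjusted p under 0.05, against 273798 of all 907719 cytosines. At position 150693368 the reads methylated were 7 of 19 in KO naive, 7 of 8 in WT naive, 13 of 13 in KO primed and 13 of 14 in WT primed.

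BRDT is a testis-specific bromodomain protein that binds acetylated histones in developing sperm, and STK31 is a testis protein with Tudor and kinase-like domains. BRDT had the largest difference of the 8 genes in WT cells. Its start window (span chr1:92414000-92480000) averaged 40.6% ± 12.8 in KO naive, 27.2% ± 18.4 in WT naive, 94.9% ± 13.6 in KO primed and 84.7% ± 12.6 in WT primed (SD, 25 cytosines). All 25 cytosines stood lower in naive than in primed cells in each genotype, against 762619 of all 907719 in KO and 697140 in WT cells. The difference was -54.3 points in KO and -57.5 in WT cells. Of the 25 cytosines, 10 (40%) were called lower in KO and 17 (68%) in WT cells, against 18.2% and 16.2% of all cytosines. At position 92414794 the reads methylated were 26 of 48 in KO naive, 4 of 38 in WT naive, 9 of 9 in KO primed and 52 of 53 in WT primed (adjusted p = 2.26e-16 in WT and 0.0482 in KO, Fisher's exact test). Median depth in this window was 23 reads in KO naive, 19 in WT naive, 8 in KO primed and 32 in WT primed, so that fewer reads stood behind the KO primed level.

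The STK31 start window (span chr7:23749000-23873000) averaged 70.4% ± 22.6 in KO naive, 46.9% ± 26.5 in WT naive, 87.6% ± 17.03 in KO primed and 95.3% ± 9.32 in WT primed (SD, 30 cytosines). The naive minus primed difference was -17.2 points in KO and -48.3 in WT cells. Of the 30 cytosines, 4 (13.3%) were called lower in KO and 11 (36.7%) in WT cells, against 18.2% and 16.2% of all cytosines. The sides of the start at position 23749838 behaved differently. In the 500 bases before it, 15 cytosines averaged 53.1% ± 16.8 in KO naive, 35.2% ± 20.2 in WT naive, 92.9% ± 8.81 in KO primed and 94.7% ± 11.4 in WT primed. In the 500 bases after it, 15 cytosines averaged 87.7% ± 11.4 in KO naive, 58.6% ± 27.5 in WT naive, 82.4% ± 21.5 in KO primed and 95.8% ± 6.97 in WT primed. KO naive was thus below KO primed before the start and 5.35 points above it after the start. The largest rises lay at positions 23750010, 23750013, 23750022 and 23750046. There KO primed had 3 methylated reads each, of 5, 5, 6 and 9 reads, and none was called. Within 1 kb of the 5′ end of the span the differences were -35.0 in KO and -60.9 in WT cells, and at cytosines with at least 10 reads they were -6.52 and -26.1.

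The body is the rest of each span outside the start window. It was lower in naive than in primed cells in 9 of 9 genes in KO and 8 of 9 in WT cells. Part of it lies near starts. In MAEL, 10 body cytosines lay within 500 bases before the placed RefSeq start and 4 more within 1000 bases. In DAZL, 11 lay between 1000 and 1500 bases after the first placed start. These levels therefore do not describe gene interiors alone. Over the 88 body cytosines the level was 62.5% ± 20.7 in KO naive, 61.4% ± 27.3 in WT naive, 84.2% ± 19.5 in KO primed and 85.2% ± 20.4 in WT primed. Their naive minus primed differences, -21.6 points in KO and -23.9 in WT cells, were near those of all cytosines, at -22.3 and -22.5. The naive minus primed difference was more negative in the start window than in the body in 5 of 8 genes in KO and in 7 of 8 in WT cells. In the 35 flanking cytosines the level was 48.8% ± 31.1 in KO naive, 48.7% ± 28.7 in WT naive, 67.7% ± 33.0 in KO primed and 66.3% ± 31.7 in WT primed. The low run past DDX4 makes up 12 of those 35. Bodies were thinly covered in BRDT (2 cytosines), HORMAD1 (3), SYCP3 (4) and TDRD1 (4).

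The promoter windows were set beside other promoters placed in the same way. Of the 5 member promoter windows with at least 5 cytosines (BRDT, DAZL, STK31, SYCP3 and TDRD1), 4 were lower by at least 25 points in naive than in primed cells in each genotype, DAZL being the exception, against 46.2% in KO and 46.6% in WT cells of the 1162 other placed promoters. The median difference of the 5 was -52.3 points in KO and -57.9 in WT cells, while the other promoters had medians of -23.2 and -23.5. None of the 5 was higher by that much, against 0.172% of the others in KO and 0.947% in WT cells. Between genotypes, the BRDT promoter was higher by 26.0 points in KO naive than in WT naive, against 4.56% of the others higher and 3.36% lower by at least 25 points. Between the primed libraries no member promoter passed 25 points, against 2.93% higher and 1.46% lower. All 5 member windows were at 75% or above in both primed libraries. Among the 748 other promoters at that level the medians were -25.2 in KO and -27.5 in WT cells. Of these 748, 50.8% in KO and 56.3% in WT cells were lower by at least 25 points in naive cells. The STK31 window averaged 48.2% ± 16.9 in KO naive, 26.3% ± 12.5 in WT naive, 92.2% ± 9.78 in KO primed and 93.4% ± 13.1 in WT primed over 11 cytosines. With 5 promoters of a chosen list these are counts and medians without a test. The other promoters had fewer CpGs, with a median of 12 in the 300 bases against 24 in the members, and the part of CpG density in the difference was not tested.

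A wider list of 34 germline genes had 7 placed promoters with at least 5 measured cytosines, and 4 of these in KO and 3 in WT cells were lower by at least 25 points in naive cells. These are 57.1% of the list in KO and 42.9% in WT cells, against 46.2% and 46.6% of the other promoters, and so near that background. The median difference of the list was -26.7 points in KO and -18.0 in WT cells, against -23.2 and -23.5. PRDM9, the methyltransferase that sets sites of meiotic recombination, averaged 27.8% ± 8.39 in KO naive, 18.2% ± 15.7 in WT naive, 88.5% ± 15.5 in KO primed and 94.6% ± 9.20 in WT primed over 12 cytosines. ASZ1, a piRNA-pathway protein of germ granules, averaged 58.5% ± 9.86 in KO naive, 55.1% ± 14.4 in WT naive, 87.5% ± 21.5 in KO primed and 95.9% ± 5.01 in WT primed over 13 cytosines. SYCP1, the transverse filament of the synaptonemal complex, averaged 47.0% ± 8.52 in KO naive, 27.4% ± 13.3 in WT naive, 94.3% ± 5.99 in KO primed and 56.5% ± 13.3 in WT primed over 14 cytosines. These 3 were thus lower in naive cells, as BRDT and TDRD1 were, and SYCP1 was also 37.9 points higher in KO primed than in WT primed. RBM46, an RNA-binding protein needed for meiosis in the mouse, averaged 85.5% ± 13.001 in KO naive, 95.7% ± 9.69 in WT naive, 96.0% ± 8.69 in KO primed and 86.5% ± 16.6 in WT primed over 9 cytosines, high in every library as at the first DAZL promoter. Its median depth was 7 reads in KO naive, 6 in WT naive, 6 in KO primed and 5 in WT primed. These levels therefore rest on few reads. RNF17, a Tudor protein of the male germline, averaged 76.7% ± 10.9 in KO naive, 87.4% ± 7.15 in WT naive, 92.4% ± 11.03 in KO primed and 84.1% ± 16.6 in WT primed over 8 cytosines. FKBP6, a chaperone-type protein needed for spermatogenesis in the mouse and the other gene lower by 25 points in KO cells, averaged 63.0% ± 15.5 in KO naive, 68.1% ± 19.0 in WT naive, 89.8% ± 15.0 in KO primed and 86.1% ± 21.3 in WT primed over 55 cytosines. BOLL, an RNA-binding relative of DAZL, was the least methylated of the list in primed cells, at 32.9% ± 11.2 in KO naive, 48.2% ± 14.1 in WT naive, 22.0% ± 7.59 in KO primed and 43.8% ± 7.72 in WT primed over 7 cytosines.

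The palindrome CACGTG, an E-box that MAX-containing dimers bind, contains a CpG and was searched in the promoter windows. It reads the same on both strands and occurred in the first promoter of 7.35% of 26246 genes in the RefSeq table. It was present in the first placed promoter of BRDT (1 match), MAEL (1), TDRD1 (2) and STK31 (2), and in neither the first DAZL promoter nor that of SYCP3. The second DAZL promoter held 1 match, and the sequences of DDX4, PIWIL1 and the upstream MAEL start held none. The motif GCGGGAA, an E2F-type site searched on both strands and not overlapping CACGTG, occurred in 6.57% of genes and in no member sequence. Only these exact letters were searched, so other forms of an E2F site were not examined. The SYCP3 stretch shown above holds the shorter GCGGGA, and the STK31 promoter holds it on the other strand, as TCCCGC. Both motifs were chosen with the sequences in view, and a match is a description of the letters. One E-box CpG had at least 5 reads in every library in each of 4 genes. At BRDT position 92414883 the reads methylated were 17 of 48 in KO naive, 1 of 18 in WT naive, 6 of 6 in KO primed and 30 of 46 in WT primed. At TDRD1 position 115939004 they were 2 of 20 in KO naive, 3 of 9 in WT naive, 20 of 20 in KO primed and 6 of 8 in WT primed. At MAEL position 166958309 they were 5 of 11 in KO naive, 2 of 14 in WT naive, 16 of 18 in KO primed and 8 of 10 in WT primed. STK31 position 23749774 had 6 of 28 in KO naive, 1 of 5 in WT naive, 11 of 11 in KO primed and 7 of 9 in WT primed. In all 4 genes the naive reads of this CpG were mostly unmethylated and the primed reads mostly methylated. Low naive levels were not particular to it. The promoter windows that include it averaged 42.9% in KO naive and 16.9% in WT naive at BRDT. They averaged 26.8% and 34.1% at TDRD1, and 48.2% and 26.3% at STK31. The MAEL window was at 66.7% ± 14.5 in KO naive, above the reads of this CpG, and at 28.9% ± 10.4 in WT naive. Without the motif, the SYCP3 window averaged 46.3% in KO naive and 30.9% in WT naive. The first DAZL window, also without it, averaged 97.5% and 98.2%.

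In primed cells the germline loci showed no called difference between genotypes. The 318 cytosines averaged 87.2% in KO primed and 85.2% in WT primed, a difference of 1.99 points, where all cytosines differed by 0.973. No member cytosine was called lower or higher in KO primed (Fisher's exact test, Benjamini-Hochberg), against 0.103% called lower and 0.216% called higher of all cytosines. An unadjusted p under 0.05 was found at 21 of 318 members and at 71717 of all 907719 cytosines. The start windows of 6 genes were higher and 2 lower in KO primed. The differences ran between -7.62 points in STK31 and 13.3 points in SYCP3, with no gene reaching 25 points, against 0.591% of tiles lower and 1.28% higher by that much. SYCP3, DDX4 and BRDT had differences of 13.3, 11.7 and 10.2 points. Each compares 1 library with 1 library, and these window differences were not tested.

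In naive cells the KO library stood above the WT library at several starts. The 318 cytosines averaged 60.3% in KO naive and 54.6% in WT naive, a difference of 5.76 points, where all cytosines differed by 1.14. In the start windows the difference was 8.83 points, with 6 genes higher and 2 lower in KO naive. The largest was in PIWIL1 at 25.9 points, the only gene past 25, against 2.89% of tiles higher and 1.73% lower by that much. STK31 followed at 23.5, DDX4 at 16.4, BRDT at 13.3 and SYCP3 at 10.1 points. TDRD1 at -7.51 and HORMAD1 at -2.06 were lower in KO naive, and DAZL differed by 2.18. All 15 PIWIL1 start cytosines were higher in KO naive, as were 24 of 30 in STK31, against 453724 of all 907719 cytosines. At cytosines with at least 10 reads in every library the difference over all members was 0.908 points, and at 20 reads it was -2.46 points over 8 cytosines, so it depended on the read minimum. By gene, 3 start windows were higher and 5 lower in KO naive at 10 reads, with SYCP3 at -11.9, DAZL at -3.31 and DDX4 (1 cytosine) at -2.45 points.

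**Figure D4:**
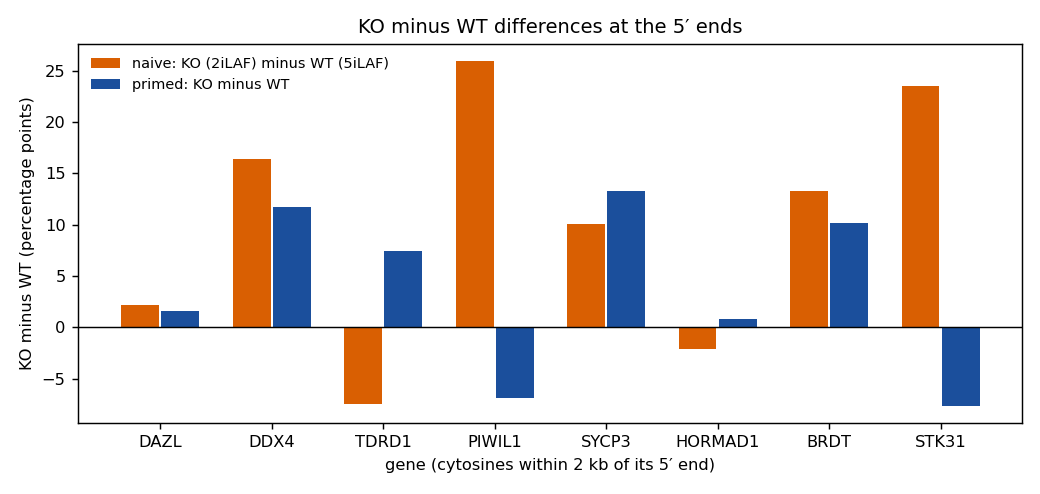
Difference in mean level, KO minus WT, in percentage points for the start windows of 8 germline genes, with 1 bar for naive and 1 bar for primed cells per gene and no error bar, as each bar compares single libraries. PIWIL1 and STK31 are at 25.9 and 23.5 points in naive cells and at -6.90 and -7.62 in primed cells, while DAZL and HORMAD1 are near 0 in both.

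Of the 318 cytosines, 6 (1.89%) were called higher and none lower in KO naive than in WT naive, against 0.391% higher and 0.218% lower of all cytosines. An unadjusted p under 0.05 was found at 42 of the 318, and at 104608 of all 907719 cytosines, a similar share. The 6 called cytosines lay in the start windows of BRDT (3), STK31 (2) and PIWIL1 (1). The PIWIL1 site at position 130821465 had 22 of 24 reads methylated in KO naive and 5 of 18 in WT naive, with 10 of 10 in KO primed and 12 of 12 in WT primed (adjusted p = 0.0165 in naive cells, Fisher's exact test). At BRDT position 92414771 the reads methylated were 27 of 48 in KO naive and 5 of 42 in WT naive (adjusted p = 0.0107, Fisher's exact test), with 9 of 9 in KO primed and 51 of 52 in WT primed. The BRDT sites at 92414723 (15 of 23 reads in KO naive, 4 of 32 in WT naive) and 92414794 lay within 100 bases of it and can share reads with it. At STK31 the positions 23749992 (13 of 14 reads in KO naive, 5 of 20 in WT naive) and 23750010 (20 of 21 in KO naive, 8 of 20 in WT naive) lay just after the start. They lie on the same strand and can also share reads, so the 6 calls are not independent. All 6 sites were mostly methylated in both primed libraries. With reads divided by the variance ratio between strands, none of the 6 was called.

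The difference between genotypes in the naive minus primed difference was 32.8 points in PIWIL1 and 31.1 points in STK31, where KO cells differed less, and -14.9 points in TDRD1, where KO cells differed more. In the other 5 genes it lay between -3.19 points in SYCP3 and 4.64 points in DDX4. With 1 library per group this difference was not tested, and genotype and naive medium cannot be told apart in it.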

How the data were processed

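Bisulfite libraries of genomic DNA were made from 4 H9 samples with a methyl capture kit, with a conversion of 99% per the labels' protocols. Per the submitters' processing notes, positions are those of hg19 (GRCh37). Which aligner and caller were used is not given in the sources used here. For each library the authors deposited a table with total, context and methylated coverage as raw read counts per cytosine and strand. The deposited methylation level is a fraction, equal to methylated over context coverage, and is given here as a percent.

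The 9 genes, their spans and the wider list of germline genes were chosen with earlier results of these data known. Groups came from the labels. Cytosines with at least 5 context reads in all 4 libraries were kept, strands apart, and averaged with equal weight. All 9 genes were named, with the cytosine of largest fall in each start window and every cytosine called between genotypes. Fisher's exact tests (two-sided) ran on methylated and unmethylated reads of each cytosine, with Benjamini-Hochberg adjustment over all 907719. Both steps were written for this purpose, with numba 0.67.0 and numpy 2.4.6. This code was checked on simulated data and, for the Fisher's exact test, against scipy 1.17.1. Reads without molecular identifiers are not independent molecules, so p-values and intervals cover counting error only. Pooled over reads, the Wilson 95% intervals of the start-window levels were 4.59 to 17.7 points wide.

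RefSeq promoters (GRCh38.p14, 300 bases) were placed by CpG spacing within their own chromosome where at least 5 listed cytosines for members, or 8 for other genes, lay on their CpGs and at least 90% of listed cytosines did. No coordinate of that build was used. Of 26246 genes in the table, 2757 were placed; chromosome 8 and the sex chromosomes were left out of this step. Read minimums of 10 and 20, merged strands, read weighting, filling in of unlisted cytosines, scaled reads and narrower windows were the alternatives.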

Additional observations from a re-analysis of the deposited data

Results flagged for a closer look

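At 3 genes the difference between KO and WT start windows ran in opposite directions in naive and primed cells, by at least 5 points each way. The difference between states was not tested, with 1 library per group. TDRD1 was lower by 7.51 points in KO naive than in WT naive (-7.5143) and higher by 7.42 points in KO primed than in WT primed (7.4246). PIWIL1 differed by 25.9 points in naive cells (25.9456) and by -6.90 points in primed cells (-6.896). STK31 differed by 23.5 points in naive cells (23.4935) and by -7.62 points in primed cells (-7.6232). At cytosines with at least 10 reads in every library the primed differences of PIWIL1 and STK31 were 2.67 and 1.30 points, so their primed direction turned with the read minimum.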

How the results depend on the processing

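At a minimum of 10 reads (120 member cytosines) 35 cytosines were called lower in KO naive cells (29.2%, against 27.4% of all) and 34 in WT naive cells (28.3% against 26.7%), where the naive minus primed difference was -27.6 points. KO minus WT in naive cells was 0.908 points with 3 calls (2.5% against 1.44%). At 20 reads only 8 members were left: the naive minus primed difference was -25.3 points in KO and -17.4 in WT cells, with 5 calls in KO (62.5% against 30.3% of all) and 2 in WT cells (25% against 32.7%), and KO minus WT was 5.43 points in primed cells and -2.46 in naive cells, with 0 calls in naive cells. With cytosines of the compared libraries alone the naive minus primed difference was -30.5 in KO and -32.4 in WT cells, and weighted by reads -29.5 and -33.9. With reads divided by the variance ratio between strands (2.34 to 3.797), 0 cytosines were called in KO and 2 in WT cells for naive against primed, and 0 between the naive libraries. The loss of calls at higher minimums goes with fewer cytosines tested, and the other causes were not tested. Merged strands, filling in, a limit of 100 reads and a difference of 50 points kept each main direction. With 1 library per group and no replicate numbers in the labels, replicates could not be paired; the only pairing was by genotype. Of 32 start-window differences, 15 moved by more than counting error at 10 reads and 10 with a 1 kb window. Low naive levels are raised because unmethylated cytosines are unlisted, and small windows such as DDX4 rest on few reads.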
